A study of Mus musculus with 8 samples.

Results

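Mucins are large glycoproteins whose central domains carry dense O-linked sugar chains. The 6 mucin genes described here are Muc2, the gel-forming mucin that goblet cells of the intestine secrete, and the transmembrane mucins Muc1, Muc3, Muc4, Muc13 and Muc20, which stay anchored in the apical membrane of epithelial cells. They were found among the 37620 Ensembl gene IDs of each expression table by matching the ID to the gene symbol, and all 6 had a row. The Muc3 row was ENSMUSG00000037390, and the separate Ensembl gene Muc3a was not analysed here. Of the 6 genes, 5 passed the filter on low counts and were tested among 12840 genes, and Muc1 did not pass it.

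The cells came from mouse small intestinal epithelium and were sorted by flow cytometry for surface CD24, a glycosylated membrane protein. The CD24Mid population, also called CD24low, had 4 libraries, numbered 1, 3, 5 and 7, and the CD24Neg population had 4 libraries, numbered 2, 4, 6 and 8. Cells carrying CD45, the pan-leukocyte antigen, and cells binding the lectin of Ulex europaeus were depleted from both populations. This lectin recognises fucosylated sugars and is used to remove secretory cells. The labels gave the libraries as biological replicates, without strain, genotype, age or the number of animals behind each, and named no treatment. If they did not come from separate animals, p-values measure only the spread between these libraries.

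In the intestine, Muc2 is folded and assembled into polymers in goblet cells, packed into granules, and released to form the mucus layer. The transmembrane mucins of enterocytes, above all Muc3 and Muc13, form the glycocalyx at the tips of the microvilli. Muc4 and Muc1 are transmembrane mucins whose cytoplasmic or membrane-near parts take part in receptor signalling, as shown mainly for the human and rat proteins.

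Libraries held between 15473071 and 17537818 gene-unique reads in CD24Mid and between 11340782 and 18928233 in CD24Neg. Mitochondrial genes took 8.03 to 9.17% of these reads in CD24Mid and 27.7 to 36.96% in CD24Neg. Levels below are CPM, the gene-unique count scaled to a common library size, with TMM factors that were 1.34 to 1.42 in CD24Mid and 0.697 to 0.757 in CD24Neg. A count of 0 allows up to 3 reads, which is 0.121 to 0.145 CPM in CD24Mid libraries and 0.218 to 0.380 CPM in CD24Neg libraries, for counting error only. Of 10 markers of stem or cycling cells, all 10 were called higher in CD24Mid, with a summed level of 4117 to 5606 CPM in CD24Mid, against 258 to 635 CPM in CD24Neg. All 11 enterocyte markers were higher in CD24Neg, with a summed level of 1247 to 2314 CPM in CD24Mid, against 31809 to 52947 CPM in CD24Neg. Markers of cells outside the epithelium also differed: plasma and B cell markers summed to 395 to 1012 CPM in CD24Mid, against 22.6 to 53.8 CPM in CD24Neg, and T cell markers to 4.68 to 15.2 CPM in CD24Mid, against 31.0 to 548 CPM in CD24Neg.

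The mucins fell into opposite directions between the populations. Muc2, Muc13 and Muc3 were lower in CD24Mid than in CD24Neg, whereas Muc4 and Muc20 were higher in CD24Mid. All 5 tested mucins passed the threshold of an adjusted p of 0.05 in edgeR's quasi-likelihood test, as did 69.8% of all genes tested, so a call is common in this comparison. Of these, 2 mucins were higher in CD24Mid, against 35.5% of all genes tested, and 3 were higher in CD24Neg, against 34.3%. The CPM values of the populations did not overlap for any of the 5 mucins, as for 64.4% of all genes tested. The sizes depended on the scaling: on totals without scaling factors the log2 fold changes were -1.45 for Muc2, -1.24 for Muc3, 2.405 for Muc4 and 2.53 for Muc20, all still called, with the median of all tested genes at 0.96. In the TMM-scaled fit, the share of tested genes with a larger absolute log2 fold change was 12.5% for Muc2, 14.6% for Muc3, 22.9% for Muc20, 25.9% for Muc4 and 29.7% for Muc13.

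The stretches just before the annotated starts of the 4 mucins with the most reads are shown because these genes moved in opposite directions. Each is the 250 bases upstream of the start in RefSeq, build GRCm38.p6, which is later than the build used for alignment, and all 6 mucins matched an entry. The windows are chr7:141690090-141690339 on the plus strand for Muc2, chr16:33793787-33794036 on the plus strand for Muc13, chr5:137166047-137166296 on the minus strand for Muc3, and chr16:32735636-32735885 on the plus strand for Muc4. Sequences run 5′ to 3′ along the gene's strand, and capitals mark matches to the motifs described next.
Muc2: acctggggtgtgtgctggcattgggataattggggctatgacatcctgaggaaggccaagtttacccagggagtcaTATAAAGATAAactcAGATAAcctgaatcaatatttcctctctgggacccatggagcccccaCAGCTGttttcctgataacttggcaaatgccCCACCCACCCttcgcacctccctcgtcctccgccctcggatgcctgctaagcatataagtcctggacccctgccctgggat
Muc13: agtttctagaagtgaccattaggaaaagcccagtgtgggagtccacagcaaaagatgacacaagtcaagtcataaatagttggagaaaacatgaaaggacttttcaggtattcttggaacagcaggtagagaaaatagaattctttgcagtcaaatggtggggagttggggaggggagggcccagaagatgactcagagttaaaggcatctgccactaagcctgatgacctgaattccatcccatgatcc
Muc3: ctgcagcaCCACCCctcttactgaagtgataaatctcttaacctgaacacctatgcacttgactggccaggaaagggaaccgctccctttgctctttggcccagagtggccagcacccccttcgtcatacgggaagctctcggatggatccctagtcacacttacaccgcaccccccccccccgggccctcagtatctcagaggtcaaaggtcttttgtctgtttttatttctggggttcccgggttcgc
Muc4: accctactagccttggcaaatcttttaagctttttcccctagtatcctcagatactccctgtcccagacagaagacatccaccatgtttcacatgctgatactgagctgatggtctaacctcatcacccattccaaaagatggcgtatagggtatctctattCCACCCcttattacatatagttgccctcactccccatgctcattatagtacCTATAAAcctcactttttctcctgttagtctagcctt

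The motifs were searched as the exact strings given, with N for any base, on both strands of the 250 bases. Other forms of each motif were not searched and are not marked. Shares are given over 32851 RefSeq windows of the same length. The string TATAAA, searched for the TATA box at any position, lay at 174 to 169 bases before the start of Muc2. In Muc4 it lay at 36 to 31 bases before the start, and 12.4% of all windows held it. A match to this string does not by itself mark a TATA box. The GATA motif (AGATAA, in 9.99% of windows) occurred 2 times in the Muc2 window, the first sharing a base with the TATAAA string. The KLF motif (CCACCC, in 28.1% of windows) occurred 2 times in Muc2, as overlapping copies, and 1 time each in Muc3 and Muc4. An E-box (CAGCTG, in 13.0% of windows) was present in Muc2. A CDX motif (TTTATNG, in 9.81% of windows) lay on the minus strand of Muc4, over its TATAAA string. None of the 4 windows held the FOXA motif (TGTTTAC, in 3.17% of windows) or an HNF4 element (CAAAGTNCA, in 1.19%). The Muc13 window held none of the 7 motifs. Windows were 53.2% G and C for Muc2, 44.8% for Muc13, 55.6% for Muc3 and 43.6% for Muc4, against a median of 52.4% over all windows. These matches are a description of the letters in the windows.

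Muc2, the gel-forming mucin, had 593, 565, 423 and 395 CPM in the CD24Mid libraries 1, 3, 5 and 7, against 3167, 4122, 1294 and 1657 CPM in the CD24Neg libraries 2, 4, 6 and 8. Every CD24Neg library lay above every CD24Mid library, and within CD24Neg the libraries 2 and 4 stood well above 6 and 8. The mean was 494 ± 99.2 CPM in CD24Mid, against 2560 ± 1320 CPM in CD24Neg (SD, n = 4 each). The log2 fold change was -2.37 ± 0.35 (SE; edgeR adjusted p = 0.000113), which is 5.18-fold lower in CD24Mid. Behind these values stood 9831 to 12226 reads per library in CD24Mid and 15006 to 35614 in CD24Neg. In bulk samples such as these, fewer cells of a type and less RNA per cell cannot be told apart.

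Muc13, a transmembrane mucin with epidermal growth factor-like domains, had the highest level per length of the 6 mucins in every library. It had 1441, 1042, 1097 and 1396 CPM in CD24Mid libraries 1, 3, 5 and 7, against 2659, 2925, 3804 and 2885 CPM in CD24Neg libraries 2, 4, 6 and 8. Library 6 was the highest of CD24Neg, where it was the lowest for Muc2. The mean was 1244 ± 203 CPM in CD24Mid, against 3068 ± 504.2 CPM in CD24Neg (SD, n = 4 each), with a log2 fold change of -1.30 ± 0.18 (SE; edgeR adjusted p = 6.06e-05). The call for Muc13 depended on the scaling. On totals without scaling factors the log2 fold change was -0.36 (edgeR adjusted p = 0.0636). On that scale the median of all tested genes stood at 0.96, and Muc13 lay at -1.32 relative to it.

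Muc3, a transmembrane mucin of the enterocyte brush border, had 305, 144, 219 and 210 CPM in CD24Mid libraries 1, 3, 5 and 7, against 931, 1017, 1244 and 763 CPM in CD24Neg libraries 2, 4, 6 and 8. The highest CD24Neg value was again in library 6, and the lowest CD24Mid value in library 3. The log2 fold change was -2.17 ± 0.23 (SE; edgeR adjusted p = 1.07e-05), or 4.50-fold lower in CD24Mid. The effective length of the Muc3 row was 1163 to 1260 bases in the deposited tables, which is short for a mucin. Reads that Muc3 shares with close copies of its sequence would be missing from gene-unique counts. With shared reads included, as estimated counts, the log2 fold change of Muc3 was -2.16 (edgeR adjusted p = 1.66e-05).

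Muc4, a transmembrane mucin known to associate with the receptor ErbB2 in rat and human cells, ran the other way. It had 173, 144, 213 and 273 CPM in CD24Mid libraries 1, 3, 5 and 7, against 66.2, 63.0, 57.3 and 107 CPM in CD24Neg libraries 2, 4, 6 and 8. All CD24Mid libraries lay above the highest CD24Neg library, which was 8. The mean was 201 ± 55.6 CPM in CD24Mid, against 73.5 ± 22.9 CPM in CD24Neg (SD, n = 4 each), and the log2 fold change was 1.45 ± 0.24 (SE; edgeR adjusted p = 0.000248), or 2.73-fold higher in CD24Mid.

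Muc20, a transmembrane mucin described in human cells as a partner of the receptor Met, was scarce. It had 53, 42, 40 and 50 reads in CD24Mid libraries 1, 3, 5 and 7, against 7, 6, 1 and 11 reads in CD24Neg libraries 2, 4, 6 and 8. These are 1.67 to 2.57 CPM in CD24Mid, against 0.0726 to 1.21 CPM in CD24Neg, without overlap. The log2 fold change was 1.60 ± 0.50 (SE; edgeR adjusted p = 0.0145). The ratio of the summed reads, scaled for library size, was 3.20, with a 95% exact interval of 2.10 to 5.08 that covers counting error only. In the GENCODE M21 annotation Muc20 and Muc4 lie tail to tail on opposite strands and share 627 exonic bases, out of 4027 for Muc20 and 11757 for Muc4. Reads that fit both genes are left out of gene-unique counts, and how strand was treated in the counting is not stated. With shared reads included, as estimated counts, the log2 fold change of Muc20 was 1.66 (edgeR adjusted p = 0.0166).

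Muc1, a transmembrane mucin of many glandular epithelia, was near the limit of detection. It had 4, 5, 1 and 8 reads in CD24Mid libraries 1, 3, 5 and 7, against 0, 0, 1 and 0 reads in CD24Neg libraries 2, 4, 6 and 8. The scaled ratio of 18 reads to 1 read was 7.79, with a 95% exact interval of 1.23 to 325 for counting error only. Muc1 was not tested in the fit described above. With edgeR and no filter on low counts its log2 fold change was 2.73 (adjusted p = 0.0466 over 21402 genes), and with DESeq2 it was 2.66 (adjusted p = 0.124 over 17645 genes). With 3 CD24Neg libraries at 0, the size of these fitted values depends on the model.

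**Figure D1:**
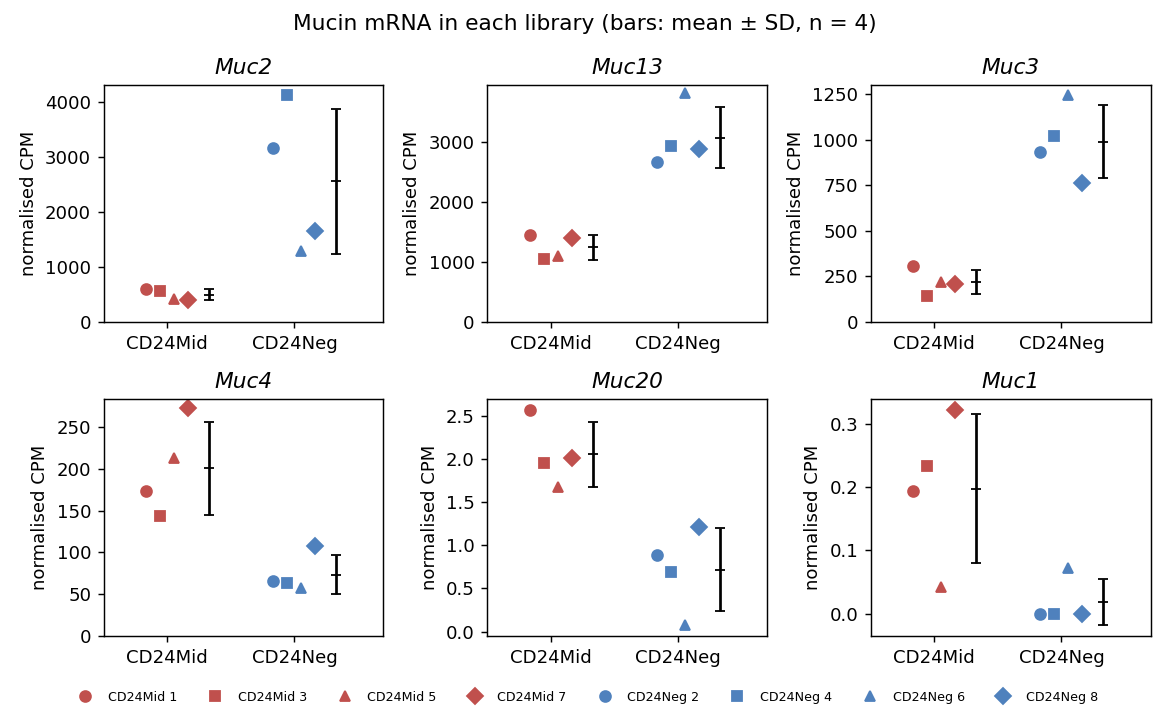
Normalised CPM of each of the 6 mucins in every library, with CD24Mid left of CD24Neg in each panel; each symbol is 1 library, and the bar to the right of the symbols spans the mean ± SD (n = 4 each). Muc2, Muc13 and Muc3 lie higher in CD24Neg, Muc4 and Muc20 lie higher in CD24Mid, and Muc1 stays below 0.4 CPM in all 8 libraries.

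Levels were compared between the mucins per length only, on the deposited expression estimate, read as fragments per kilobase of length, scaled to library size. On this scale Muc13 averaged 646 ± 105 in CD24Mid and 844 ± 162 in CD24Neg, Muc3 averaged 221 ± 62.2 in CD24Mid and 559 ± 126 in CD24Neg, and Muc2 averaged 110 ± 15.8 in CD24Mid and 297 ± 158 in CD24Neg (SD, n = 4 each). Muc4 averaged 54.7 ± 5.60 in CD24Mid and 11.8 ± 3.84 in CD24Neg, on the same scale. Muc20 averaged 0.916 ± 0.125 in CD24Mid and 0.156 ± 0.114 in CD24Neg. Muc1 had 0.143, 0.214, 0.0194 and 0.785 in CD24Mid libraries 1, 3, 5 and 7, and was listed at 0 in 3 of the 4 CD24Neg libraries, with 0.0181 in the other. The high value of library 7 came with an effective length of 651.5 bases, against 1782 to 1795 bases in the other CD24Mid libraries. The descending order of levels was Muc13, Muc3, Muc2, Muc4, Muc20, Muc1 in 7 of the 8 libraries, and in CD24Neg library 6 Muc1 and Muc20, with 1 gene-unique read each, changed places. In CD24Mid the ranges of neighbours in this order did not overlap, except for Muc20 and Muc1, through the Muc1 value of library 7 alone. In CD24Neg the ranges of neighbours overlapped for Muc13 and Muc3, for Muc3 and Muc2 and for Muc20 and Muc1, and Muc3 ran from 420 to 709 and Muc2 from 154 to 496. These estimates are not scaled for the difference in composition between the populations, and the Muc13 estimates overlapped on them, with 531 to 747 in CD24Mid and 703 to 1073 in CD24Neg.

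As a share of the summed per-length level of all 6 mucins, Muc13 made up 62.5 ± 3.05% in CD24Mid and 49.5 ± 6.60% in CD24Neg (SD, n = 4 each). Muc3 made up 21.2 ± 3.48% in CD24Mid and 32.4 ± 2.79% in CD24Neg, without overlap between libraries. Muc4 made up 5.33 ± 0.43% in CD24Mid and 0.728 ± 0.348% in CD24Neg, also without overlap. The Muc2 share was 10.9 ± 2.48% in CD24Mid and 17.3 ± 8.09% in CD24Neg, and here the populations overlapped. The CD24Neg libraries 2, 4, 6 and 8 had Muc2 shares of 22.4%, 25.5%, 7.93% and 13.4%, and library 6 lay below all 4 CD24Mid libraries. Muc20 and Muc1 together stayed below 1% in every library.

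**Figure D2:**
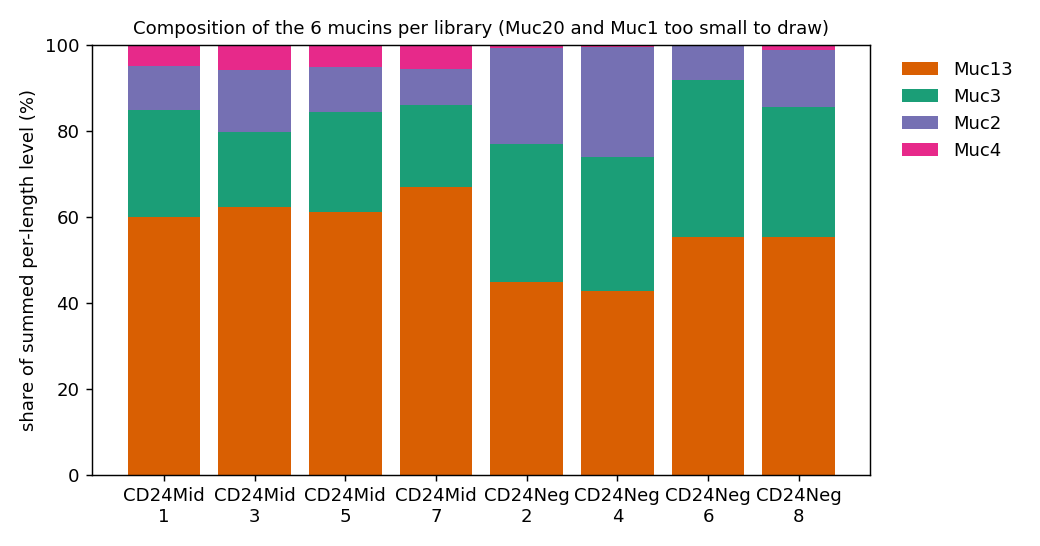
Share of each mucin in the summed per-length level of the 6 mucins, in percent on the vertical axis, with 1 stacked bar per library and CD24Mid left of CD24Neg. Muc20 and Muc1 are too small to be drawn. Muc13 is the largest part of every bar, the Muc4 part is visible mainly in CD24Mid, and the Muc2 part varies most among the CD24Neg libraries.

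The gel-forming mucin was set against each transmembrane mucin within a library, which removes the effect of library scaling. The log2 ratio of Muc2 to Muc13 reads was -1.34 ± 0.38 in CD24Mid and -0.40 ± 0.95 in CD24Neg (SD, n = 4 each). The difference of -0.94 ± 0.51 (SE) had an exact two-sided permutation p of 0.171 (0.206 adjusted over the 6 ratios), and the populations overlapped. For Muc2 to Muc3 the log2 ratio was 1.20 ± 0.52 in CD24Mid and 1.24 ± 0.88 in CD24Neg, with an exact permutation p of 0.943, and the difference of -0.041 ± 0.51 (SE) leaves room for a change in either direction. For Muc2 to Muc4 the log2 ratio was 1.32 ± 0.67 in CD24Mid and 5.01 ± 0.96 in CD24Neg, without overlap, a difference of -3.69 ± 0.59 (SE). The difference for Muc20 was -4.11 ± 0.68 (SE), again without overlap. The ratios to Muc1 did not overlap either, but Muc1 had 0 reads in 3 CD24Neg libraries, so the size of that difference is set by the added count: it was -3.68 with 0.5 added to each count and -2.43 with 2 added. Each of these 3 reached an exact permutation p of 0.0286, the smallest that 4 against 4 libraries allow, and 0.0571 after adjustment over the 6 ratios, which does not pass 0.05. Muc2 against the sum of the 5 transmembrane mucins gave a difference of -0.93 ± 0.51 (SE; exact permutation p = 0.171, adjusted 0.206).

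Muc2 was next set beside other genes of goblet cells. Of 15 tested goblet markers, 7 were higher in CD24Neg, none was higher in CD24Mid and 8 were not called, with a median log2 fold change of -0.39 against 0.015 for all genes tested. On totals without scaling factors, the split was 7 higher in CD24Mid and 5 higher in CD24Neg. Fcgbp, which encodes a mucus protein that binds Muc2, had 2571, 2036, 2234 and 1855 CPM in CD24Mid libraries 1, 3, 5 and 7, against 12579, 15843, 5355 and 6444 CPM in CD24Neg libraries 2, 4, 6 and 8. Like Muc2, Fcgbp was high in CD24Neg libraries 2 and 4 and lower in 6 and 8. Tff3, a secreted trefoil peptide, was 4.54-fold lower in CD24Mid (edgeR adjusted p = 0.000221), and Zg16, a lectin of the mucus, was 8.22-fold lower in CD24Mid (edgeR adjusted p = 6.49e-05).

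Other goblet genes did not pass the test. Agr2, the disulfide isomerase needed for Muc2 folding, averaged 266 ± 77.5 CPM in CD24Mid, against 206 ± 84.2 CPM in CD24Neg (edgeR adjusted p = 0.265). Spink4, a secreted peptide of goblet cells, averaged 155 ± 65.9 CPM in CD24Mid, against 121 ± 50.7 CPM in CD24Neg (edgeR adjusted p = 0.369). The transcription factors that drive secretory and goblet fate were also not called: Atoh1 averaged 12.7 CPM in CD24Mid, against 13.0 CPM in CD24Neg, and Spdef 17.7 CPM in CD24Mid, against 20.9 CPM in CD24Neg. Without scaling factors all 4 were called higher in CD24Mid, with log2 fold changes of 1.30 for Agr2, 1.30 for Spink4, 0.91 for Atoh1 and 0.71 for Spdef, against the median gene at 0.96. Agr2 was also called higher in CD24Mid without CD24Neg library 4 (log2 fold change 0.70, edgeR adjusted p = 0.0315). Agr2, Spink4, Atoh1 and Spdef were picked for naming after their values were seen. The reads of Muc2 stood to those of Tff3 in a ratio of 0.791 to 1.26 in CD24Mid and 0.945 to 1.24 in CD24Neg, whereas the ratio of Muc2 to Agr2 was 1.48 to 2.72 in CD24Mid and 9.52 to 14.4 in CD24Neg. The summed level of the goblet markers was 3210 to 4972 CPM in CD24Mid, against 11108 to 30773 CPM in CD24Neg, and Muc2, which is not on that list, equalled 10.4 to 12.3% of this sum in CD24Mid and 11.6 to 13.4% in CD24Neg. Fcgbp alone averaged 2174 CPM of a mean sum of 4272 CPM in CD24Mid, and 10055 of 19963 CPM in CD24Neg. The sum therefore follows a few abundant genes more than the list as a whole. Retnlb, another goblet gene, was near 0, with 4 reads in CD24Mid and 1 in CD24Neg. The part of goblet cell number in the Muc2 difference was not tested. The part of the lectin depletion, which both populations underwent, in the levels of Muc2 and the goblet genes was not tested either.

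The genes whose profiles over the 8 libraries were most like that of Muc2, out of 8977 genes whose mean log2 CPM reached 3, were Fcgbp, Tff3, Capn9 and Clca1. Their root mean square differences from the Muc2 profile, on the log2 scale after subtracting each gene's mean, were 0.166, 0.207, 0.210 and 0.232. For Muc3 the nearest were Slc26a3, a chloride and bicarbonate exchanger of the apical membrane, at 0.125, then Abhd3 at 0.157, Arg2 at 0.172 and Chp2 at 0.178. For Muc13 they were Snx25 at 0.101, Mgat3 at 0.111, Antxr2 at 0.113 and Fbxo8 at 0.115. Muc3 ranked 434th and Muc13 1151st in likeness to Muc2. All these profiles contain the step between the populations, so likeness among genes with a like fold change is built in.

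**Figure D3:**
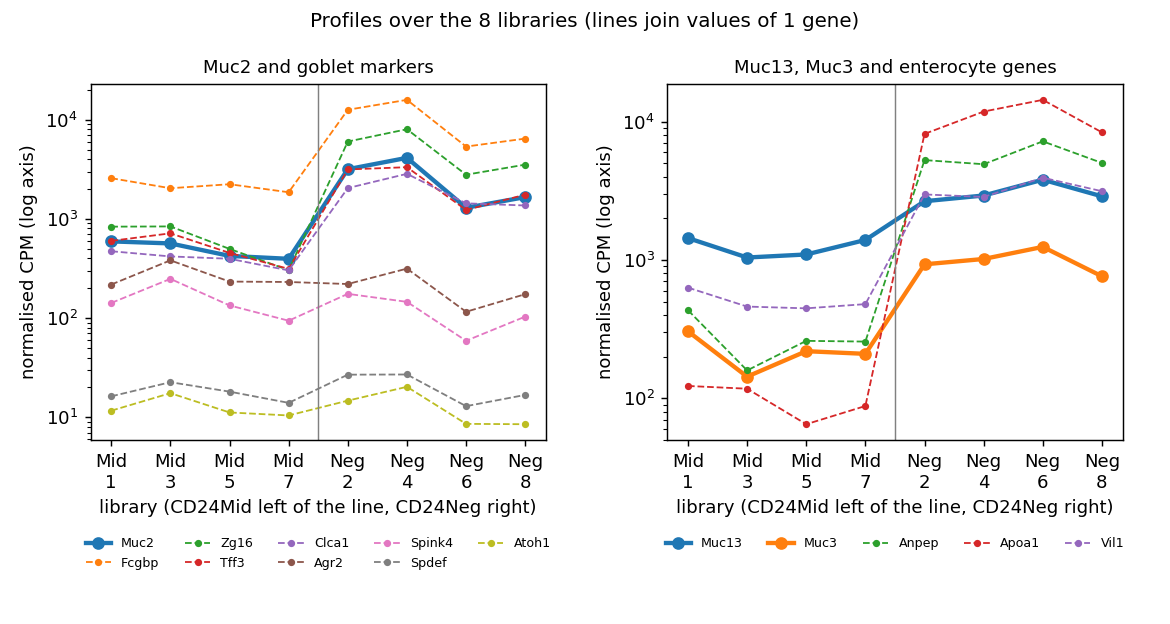
Normalised CPM on a log axis over the 8 libraries, CD24Mid left of the grey line and CD24Neg right of it; each line joins the values of 1 gene. On the left, Muc2, Fcgbp, Tff3, Clca1 and Zg16 step up in CD24Neg while Agr2, Spink4, Spdef and Atoh1 do not; on the right, Muc13 and Muc3 peak in CD24Neg library 6, as do Anpep, Apoa1 and Vil1.

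Of 18 other mucin and mucin-like genes listed, 13 had a row and 5 passed the count filter, of which 2 were higher in each population and 1 was not called. Cdhr5, a mucin-like protocadherin that links microvilli at their tips, averaged 170 ± 49.8 CPM in CD24Mid, against 1790 ± 199 CPM in CD24Neg, or 10.5-fold lower in CD24Mid (edgeR adjusted p = 3.02e-07). Muc6, a gel-forming mucin known from gastric glands, was scarce, with 0.435 ± 0.288 CPM in CD24Mid, against 3.33 ± 1.01 CPM in CD24Neg (SD, n = 4 each; edgeR adjusted p = 0.000139). Podxl and Ovgp1 were 3.79-fold and 3.60-fold higher in CD24Mid at levels below 2 CPM (edgeR adjusted p = 0.00133 and 0.000601). Cd164, a small sialomucin, averaged 241 ± 24.5 CPM in CD24Mid, against 218 ± 17.1 CPM in CD24Neg (edgeR adjusted p = 0.262), and it was called higher in CD24Mid with upper-quartile factors (log2 fold change 0.37, adjusted p = 0.0112), without scaling factors (1.09, adjusted p = 1.49e-05) and with limma on the deposited estimates (1.07, adjusted p = 0.000302). The gel-forming mucins Muc5ac, with 1 read in all CD24Mid libraries and 5 in all CD24Neg libraries, and Muc5b, with 0 reads and 1 read, were near 0, and Muc15 and Muc19 had 0 reads in all 8 libraries. Mcam, Cd34 and Prg4 had too few reads to be tested, with 19, 24 and 29 in CD24Mid and 43, 6 and 26 in CD24Neg.

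The sugar chains of mucins are begun by the GALNT enzymes and branched by core enzymes. Of 16 core enzymes, 2 were higher in CD24Mid and 8 in CD24Neg, while 6 were not called, with a median log2 fold change of -0.36. The split was 3 higher in CD24Mid and 5 higher in CD24Neg under upper-quartile factors and 8 against 3 without any factors, so the direction of this group followed the scaling. Galnt6, an initiating enzyme, averaged 168 ± 24.8 CPM in CD24Mid, against 420 ± 23.3 CPM in CD24Neg (edgeR adjusted p = 4.25e-06). On TMM-scaled counts, Galnt1 was 1.72-fold lower in CD24Mid (edgeR adjusted p = 0.000439). The 2 higher in CD24Mid were Galnt12 and Galnt4, by 1.63-fold and 1.25-fold (edgeR adjusted p = 0.0130 and 0.0132). The branching enzymes Gcnt4 and Gcnt3 were 2.30-fold and 1.64-fold lower in CD24Mid (edgeR adjusted p = 4.6e-05 and 0.0353). On unscaled totals Galnt1 and Gcnt3 changed sign, with log2 fold changes of 0.16 and 0.22 that were not called, and Gcnt4 was no longer called. The Gcnt3 call was also lost with upper-quartile factors (adjusted p = 0.126), with no filter on low counts (adjusted p = 0.1205) and with 5 of the 8 libraries left out in turn (CD24Mid 1, 5 or 7, CD24Neg 2 or 4), with adjusted p-values up to 0.172.

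Of 18 tested enzymes that extend or cap the chains, 4 were higher in CD24Mid and 7 in CD24Neg, while 7 were not called, with a median log2 fold change of -0.17. Without scaling factors 10 were higher in CD24Mid and 3 in CD24Neg, and under upper-quartile factors the split was 6 against 7. St3gal4, a sialyltransferase, had the largest called change of this group among genes whose mean log2 CPM reached 3. It had 463, 178, 177 and 223 CPM in CD24Mid libraries 1, 3, 5 and 7, against 2292, 1681, 1847 and 1995 CPM in CD24Neg libraries 2, 4, 6 and 8 (7.51-fold lower in CD24Mid, edgeR adjusted p = 1.08e-05). B4galnt3, B3gnt7 and the sulfotransferase Chst4 were 3.48-fold, 2.97-fold and 2.45-fold lower in CD24Mid (edgeR adjusted p = 8.51e-07, 0.000114 and 0.000751), and on unscaled totals Chst4 was no longer called (adjusted p = 0.196). Among the 4 higher in CD24Mid was St6gal1, also a sialyltransferase but at a lower mean level. It averaged 6.94 CPM in CD24Mid, against 0.502 CPM in CD24Neg (14.0-fold higher in CD24Mid, edgeR adjusted p = 3.86e-06).

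Of 20 tested genes of mucin folding, packaging and release, 5 were higher in CD24Mid and 10 in CD24Neg, while 5 were not called, with a median log2 fold change of -0.50. On unscaled totals, 10 were higher in CD24Mid and 7 in CD24Neg. The list shares 6 genes with the goblet markers. Clca1, a secreted protease that acts on Muc2, averaged 397 ± 70.7 CPM in CD24Mid, against 1921 ± 687 CPM in CD24Neg (edgeR adjusted p = 1.38e-05). Slc26a3, whose bicarbonate transport bears on mucus expansion, averaged 61.3 ± 18.5 CPM in CD24Mid, against 296 ± 36.5 CPM in CD24Neg (edgeR adjusted p = 2.89e-06). Among the 5 higher in CD24Mid, Cftr was 1.95-fold higher there (edgeR adjusted p = 0.00268).

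Of 11 genes of mucin cleavage and shedding, 3 were higher in CD24Mid and 5 in CD24Neg, while 3 were not called. On unscaled totals, 6 were higher in CD24Mid and 4 in CD24Neg. Meprin beta, encoded by Mep1b, releases Muc2 from the epithelium in the mouse small intestine. Mep1b had 86.9, 23.3, 37.5 and 45.6 CPM in CD24Mid libraries 1, 3, 5 and 7, against 1253, 1218, 1993 and 1453 CPM in CD24Neg libraries 2, 4, 6 and 8 (30.6-fold lower in CD24Mid, edgeR adjusted p = 1.36e-06). Its partner subunit Mep1a was 13.5-fold lower in CD24Mid (edgeR adjusted p = 1.35e-07). Clca4a and Clca4b, relatives of Clca1, were 120-fold and 6.60-fold lower in CD24Mid (edgeR adjusted p = 1.7e-06 and 4.47e-05). Among the 3 higher in CD24Mid, Mmp7 was 4.45-fold higher there (edgeR adjusted p = 1.43e-05).

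Transmembrane mucins lie in the brush border, whose scaffold includes actin bundlers and PDZ proteins. The brush border list of 15 genes also holds myosin motors, Ezr, the protocadherin Cdhr2 and the galectins Lgals3 and Lgals4. Of these 15 genes, 14 were higher in CD24Neg and 1 was higher in CD24Mid, with a median log2 fold change of -2.33, and on unscaled totals the split was 13 and 1. Pdzk1, a PDZ scaffold protein, averaged 1.499 ± 0.485 CPM in CD24Mid, against 230 ± 88.6 CPM in CD24Neg (edgeR adjusted p = 1.26e-07). Espn, Cdhr2 and Pls1 were 42.5-fold, 11.5-fold and 9.27-fold lower in CD24Mid (edgeR adjusted p = 9.35e-08, 1.88e-07 and 9.33e-07). The exception was Slc9a3r2, at 1.15 ± 0.367 CPM in CD24Mid, against 0.388 ± 0.228 CPM in CD24Neg (edgeR adjusted p = 0.00826).

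Of 21 transcription factors of secretory cells and enterocytes, 5 were higher in CD24Mid and 7 in CD24Neg, while 9 were not called. Over all genes tested, 69.8% were called, with 35.5% higher in CD24Mid and 34.3% higher in CD24Neg. On unscaled totals, 16 of the 21 factors were higher in CD24Mid and 5 in CD24Neg. Creb3l3 and Maf were 17.7-fold and 11.9-fold lower in CD24Mid (edgeR adjusted p = 8.35e-06 and 4.63e-07). Hnf4g, an enterocyte nuclear receptor, and Klf4, a zinc finger factor of goblet cells and differentiated enterocytes, were 3.82-fold and 3.23-fold lower in CD24Mid (edgeR adjusted p = 2.37e-05 and 6.37e-06). Among the 5 higher in CD24Mid, Foxa1 and Foxa2 were 2.81-fold and 3.77-fold higher there (edgeR adjusted p = 4.68e-05 and 7.02e-05).

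**Figure D4:**
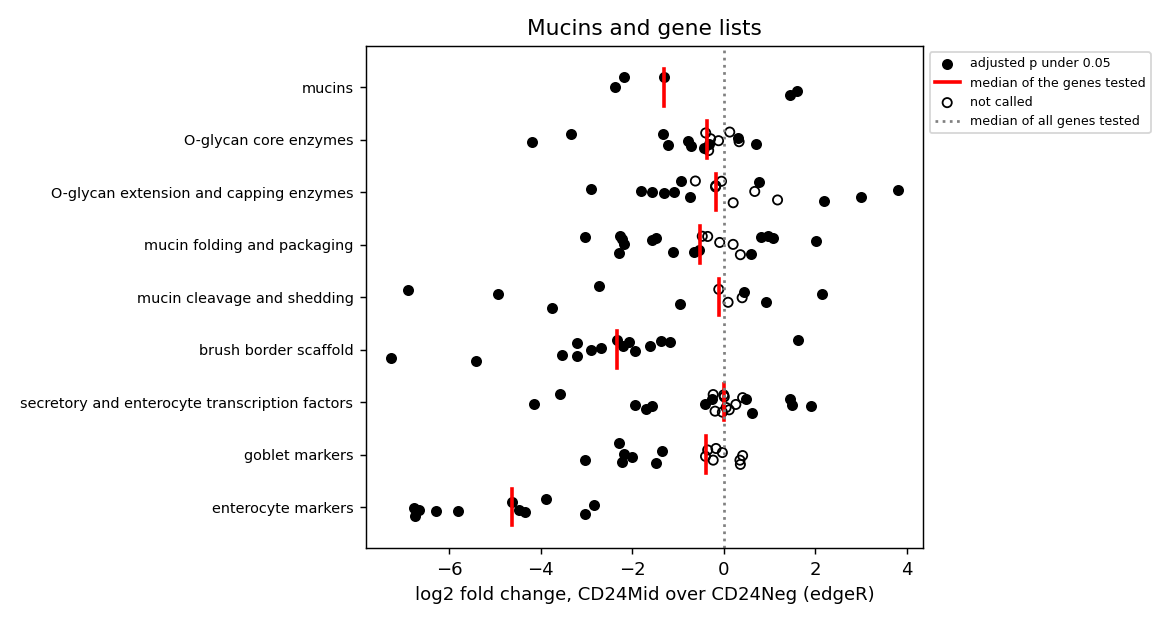
Log2 fold change, CD24Mid over CD24Neg, of each tested gene in the mucins and 8 of the lists; filled points passed an adjusted p of 0.05 by edgeR over all 12840 genes tested, open points did not, red lines mark the median of each list and the dotted line that of all genes tested. The brush border scaffold has 14 of 15 genes on the CD24Neg side, left of 0; the sugar-chain, packaging, cleavage and transcription factor lists lie on both sides, and on unscaled totals more of their called genes are higher in CD24Mid than in CD24Neg.

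Markers of other secretory cells stood beside the mucins as follows. Paneth markers, of which 9 were tested, were higher in each population for 2 and not called for 5, and summed to 103 to 234 CPM in CD24Mid, against 84.5 to 304 CPM in CD24Neg. Of 12 enteroendocrine markers, 8 were higher in CD24Mid and none in CD24Neg, and their sum was 304 to 870 CPM in CD24Mid, against 85.7 to 159 CPM in CD24Neg. Of 4 tested tuft markers, 1 was higher in each population and 2 were not called, and their sum, over all 11 listed, was 22.1 to 28.7 CPM in CD24Mid, against 28.9 to 45.6 CPM in CD24Neg. For these cells and for the stem, enterocyte, plasma, B and T cells given at the outset, their part in the mucin differences was not tested.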

How the data were processed

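RNA from the 8 sorted samples was turned into TruSeq libraries, per the labels. Reads were aligned with Bowtie 0.12.8 to NCBIM37, per the submitters' processing notes. The column names of the deposited tables are those of MMSEQ, which estimates expression from reads that fit several transcripts. For its version, the annotation release and the strand setting nothing is given in the sources used here. The authors deposited, for each gene, a count of reads unique to it and a natural log expression estimate that includes shared reads. The labels do not give its scale. From the values, it was read as fragments per kilobase of effective length scaled to mapped fragments, and all per-length levels rest on this reading. Between 89.1% and 92.6% of the 12401668 to 20445879 mapped fragments per library were unique to 1 gene. Names were found for 32897 of 37620 IDs (87.4%), and these held 99.3% of the counts.

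The counts went into edgeR 4.0.16 under R 4.3.3 (filterByExpr, TMM, robust quasi-likelihood test, group as the only term), with Benjamini-Hochberg adjustment over all 12840 genes tested. The test was tried on simulated data first. Fold changes are CD24Mid over CD24Neg. Replicate pairs within a population differed more than sampling noise allows (lowest chi-square 10.8 per degree of freedom), so none was taken for the same library deposited again. This does not show that they came from separate animals. Ratios of reads had 0.5 added to each count and were tested with SciPy 1.17.1. DESeq2 1.42.0, limma 3.58.1, other scalings, no filter and leaving out each library were alternatives. Intervals cover counting error only, since the labels name no molecular identifiers. The members, the 16 gene lists (209 of 215 places matched a row) and the tests were chosen with earlier results of these data known. Genes were named by a rule: all members, other mucin genes with at least 10 reads in any library, up to 4 called genes per list by absolute log2 fold change whose mean log2 CPM reached 3, named list exceptions, up to 3 markers per list by mean level, and the 4 nearest profiles. Galnt4, Galnt12, St6gal1, Cftr, Mmp7, Foxa1 and Foxa2 were named outside this rule after their values were seen, and their values under the alternatives are not given.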

Additional observations from a re-analysis of the deposited data

Results flagged for a closer look

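Within groups of 4 libraries, 6 of the 68 groups of values checked had a library set apart from the other 3 by more than Dixon's 95% critical value, and chance gives about 1 in 20. The log2 ratio of Muc2 to Muc3 was 1.98 in CD24Mid library 3, against 0.914 to 0.956 in the other CD24Mid libraries, and this library had the fewest Muc3 reads. The summed level of the O-glycan extension and capping enzymes was 1268 CPM in CD24Mid library 1, the library with the highest St3gal4 value of CD24Mid. Paneth markers summed to 234 CPM in CD24Mid library 3, the highest of CD24Mid. The brush border scaffold summed to 19006 CPM in CD24Neg library 6, in which Muc13 and Muc3 were also highest. Muc1 stood apart in CD24Neg library 6, with 0.0726 CPM and a share of 0.000933% of the mucin level, and this rests on 1 read.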

How the results depend on the processing

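Muc2, Muc3, Muc4 and Muc20 kept their direction and stayed past the threshold under all 16 alternatives, with adjusted p-values up to 0.0196, 0.00227, 0.00162 and 0.0368. Their sizes moved by over 1.5 times on unscaled totals, to log2 fold changes of -1.45, -1.24, 2.405 and 2.53, and with limma on the deposited estimates, to -1.28, -1.35, 2.27 and 3.25. Muc13 kept its direction but lost its call on unscaled totals (log2 fold change -0.36) and with limma on the deposited estimates (-0.38, adjusted p = 0.0927). Over all genes, 4557 were called higher in CD24Mid and 4410 higher in CD24Neg. On unscaled totals these counts were 8959 and 1659, and with limma on the deposited estimates 8972 and 1684. Neither alternative scales for composition, and without scaling factors the median gene stood at a log2 fold change of 0.96.

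Leaving out each library in turn gave log2 fold changes of -2.55 to -1.99 for Muc2, -1.38 to -1.13 for Muc13, -2.37 to -1.99 for Muc3, 1.27 to 1.74 for Muc4 and 1.18 to 2.07 for Muc20, all still called. The difference in the log2 ratio of Muc2 to Muc3 had no stable sign: it was 0.079 on unique counts per effective length and -0.44 to 0.22 with a library left out, and the cause was not tested. Of the other counts per list under the alternatives, 444 stayed within 1.5 times the main count and 36 did not. Of 35 other named genes followed through the alternatives, 26 kept direction and call under all of them. Reversed log2 fold changes were those of Galnt1 (0.16 on unscaled totals and 0.17 with limma on the deposited estimates), Gcnt3 (0.22 and 0.31), Spdef (0.71 and 0.69) and Atoh1 (0.91 and 0.95). Atoh1, at -0.026 in the fit reported, was also 0.20 with upper-quartile factors, 0.0045 with TMM without mitochondrial genes, 0.070 without the filter and -0.22 to 0.32 with a library left out. Muc1 and Muc20 are limited by depth. No paired analysis was possible because the populations share no replicate number and the labels name no pairs, litters or batches.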

Other observations

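Within both populations the libraries numbered 1 to 4 had more Muc2 than those numbered 5 to 8. Muc2 had 593 and 565 CPM in CD24Mid libraries 1 and 3, against 423 and 395 CPM in CD24Mid libraries 5 and 7. In CD24Neg it had 3167 and 4122 CPM in libraries 2 and 4, against 1294 and 1657 CPM in libraries 6 and 8. Zg16 and Tff3 were split in the same way, and Muc13 was not. The labels give no batch, and this pattern was seen in the data and not tested. The effective length that the deposited tables give for Muc4 ran from 3601 to 6222 bases over the 8 libraries, while that of Muc13 ran from 2380 to 2437 bases. For Muc4, CD24Mid libraries 1 and 3 had 3650 and 3601 bases, against 5594 and 5932 in 5 and 7. CD24Neg libraries 2 and 4 had 3787 and 3845, against 6222 and 4387 in 6 and 8. In CD24Mid the Muc4 CPM split the same way, with 173 and 144 against 213 and 273. The per-length level there did not, and ran from 49.8 to 60.7. In CD24Neg the CPM did not follow the length, with 57.3 in library 6 and 107 in library 8. The per-length level of Muc4 therefore rests on a length that differs between libraries. Whether this length also bears on its gene-unique counts was not tested.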
